A study of Aspergillus niger with 11 samples.

Results

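In submerged cultures of Aspergillus niger under oxygen limitation, 28 of 10445 measured genes met a rule for transcripts highest in the late phase, at 66 h. They were chosen from the values themselves. A gene was taken if its mean at 66 h reached 100 FPKM (a read count divided by gene length and by the size of the library), if that mean was at least 75% above the highest mean of 18, 24 and 42 h after 10 FPKM had been added to each, and if both 66 h libraries lay above all 9 others. In addition, the mean with 10 FPKM added had to be under 2 times the 18 h one at 24 h, and under 3 times the 24 h one at 42 h. That these genes are highest at 66 h is therefore a condition of their choice and not a finding, and their differences between times are described without being used as support.

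The RNA came from strain DS03043 grown in a 5 L stirred fermenter as a fed-batch culture, in which medium is fed while the culture runs, at 34 °C, pH 4.5, 375 rpm, an air flow of 1 vvm and an overpressure of 0.05 MPa, with oxygen limitation named as the treatment of every library. The libraries fall into the exponential phase (18 h, n = 3), the transition into oxygen limitation (24 h, n = 3), the middle of the limited phase (42 h, n = 3) and its late part (66 h, n = 2), with the sampling times matched to the phases in chronological order because the labels list them for the series and not per library. The study asked how the fungus adapts to low oxygen, but no well-aerated culture of the same age was among the libraries, so oxygen supply, culture age and feeding cannot be told apart. The labels do not say that replicates are separate cultures, so any spread given here may be technical, and in bulk RNA fewer cells that express a gene and less RNA per cell cannot be told apart.

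A. niger is a filamentous fungus that grows as branching hyphae and is used in industry for citric acid and secreted enzymes. In a dense fed-batch culture the transfer of oxygen into the broth limits respiration, growth slows, and the mycelium becomes a mixture of young tips and older compartments. The reference gene table pairs 102 of the measured genes with a symbol, and 0 of the 28 genes are among them. All 28 match that table by locus, so they are named by locus only and no role is given for them.

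The depth behind these values is small. In 24 of the 28 genes the values came in steps, each the worth of 1 read, so that reads could be counted back from FPKM, and the relative depth of the 11 libraries spanned 1.59-fold. A 66 h library held 2 to 98 reads of such a gene, with a median of 17, and another library held a median of 4 reads and at most 46. Over both 66 h libraries 3 genes rested on at most 10 reads and 6 on at least 50. Over the 7638 genes of the series whose step could be read, a library held 16286 to 24918 reads. This is not the full depth, because genes without a readable step are left out. These include An12g03030 and also less abundant genes, such as An02g05280. The 66 h libraries were the deepest, with 1.59 and 1.51 times the depth of the shallowest library, while their summed FPKM, 968822 and 969134, were the lowest of the series.

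**Figure D1:**
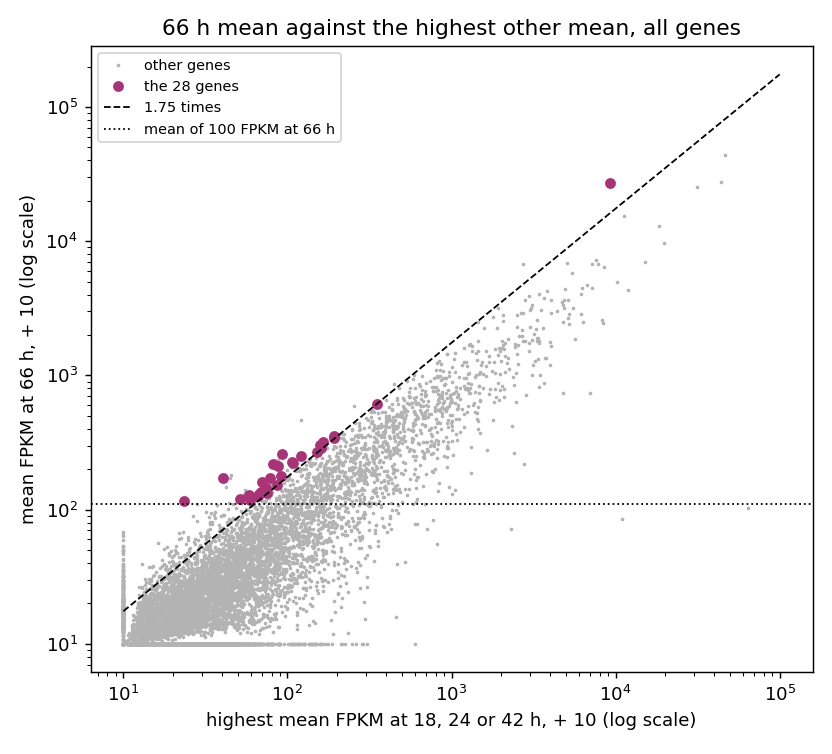
Each point is 1 of 10445 genes, with its mean FPKM at 66 h (vertical axis) against its highest mean at 18, 24 or 42 h (horizontal axis), both with 10 FPKM added and on log scales. The 28 genes (large points) lie above the dotted line of 100 FPKM and above the dashed line of 75% above the highest other mean, 26 of them at 106 to 342 FPKM, and An12g03030 stands alone at 27275 FPKM.

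In 27 of the 28 genes the level was modest. Their means at 66 h ran up to 601 FPKM, 15 of the 28 genes lay under 200 FPKM, and the median over all 28 was 184 FPKM. The medians over the 28 genes were 54.2 FPKM at 18 h, 49.6 at 24 h and 77.2 at 42 h. Relative to 42 h, the median log2 ratio of the means (with 10 FPKM added) was 1.08, with a range of 0.81 to 3.39, while it was 0.06 over the 1301 genes with at least 100 FPKM at 66 h and 0 over all 10445 genes. Of the 10445 genes, 1301 met the minimum at 66 h, 375 met the ratio and 294 had both 66 h libraries above all others. Those 294 genes are 3.38% of the 8693 genes with at least 1 FPKM in at least 2 libraries.

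The 28 genes together took a share of all FPKM that was 0.65% ± 0.06 at 18 h, 1.00% ± 0.45 at 24 h, 1.19% ± 0.12 at 42 h (SD, n = 3 each) and then 3.39% ± 0.86 at 66 h (n = 2). Most of that share was An12g03030. Without it the other 27 genes held 0.145% ± 0.011 at 18 h, 0.169% ± 0.044 at 24 h, 0.244% ± 0.015 at 42 h and then 0.576% ± 0.019 at 66 h. The 24 genes with countable reads held 101, 108 and 78 reads in the 18 h libraries, 150, 75 and 83 at 24 h, 181, 220 and 218 at 42 h and then 515 and 468 at 66 h. The sums of the 27 genes differed between the 66 h libraries by 0.07 in absolute log2, and 1 of the 27 genes differed by less.

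An12g03030 was the one very abundant transcript among them. It stood at 4889, 5962 and 5220.2 FPKM at 18 h, 13989.8, 7149 and 5992 at 24 h, 8176, 10659 and 9039.7 at 42 h and then 33064 and 21486 at 66 h. The 66 h libraries lay above all others but differed from each other by 1.54-fold, and at 24 h replicate 1 stood above the other two libraries and above every 42 h library. By mean FPKM it ranked 18th of all genes at 18 h, 10th at 24 h, 7th at 42 h and then 3rd at 66 h. Its mean was 5357 ± 550 FPKM at 18 h, 9044 ± 4322 at 24 h, 9292 ± 1260 at 42 h (SD, n = 3 each) and then 27275 ± 8186 at 66 h (n = 2), and the log2 ratio of 66 h to 42 h was 1.55. Its lower 66 h library exceeded the highest library of the other times by 1.54-fold.

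**Figure D2:**
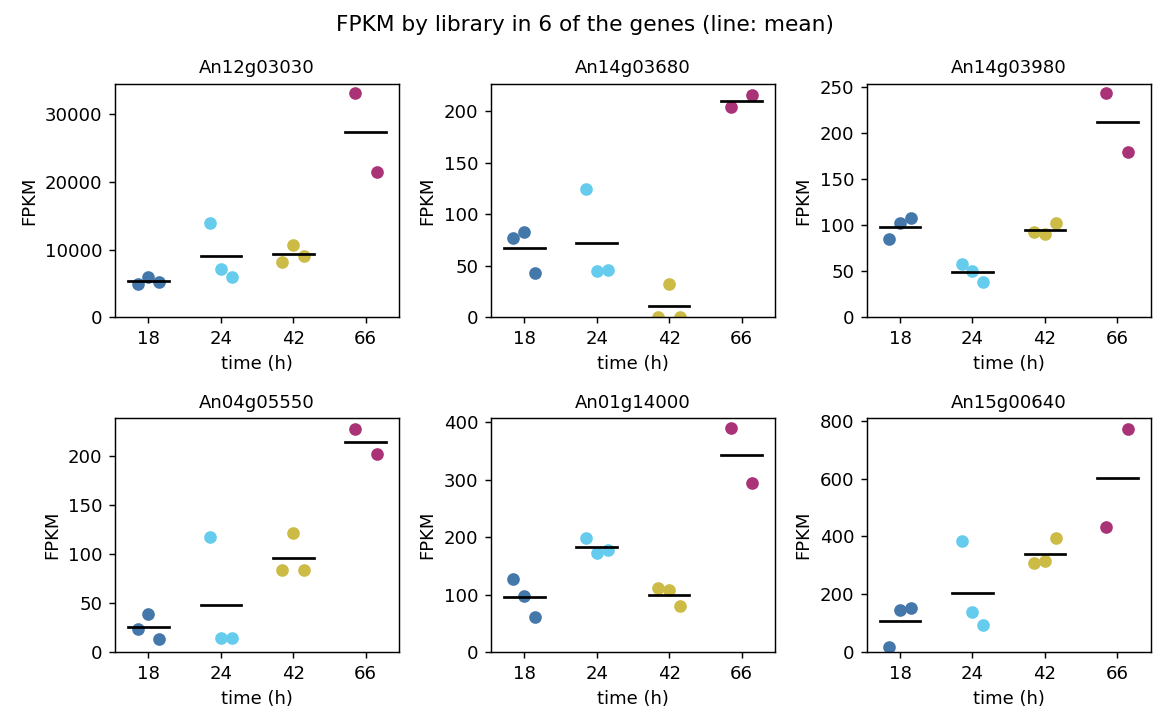
FPKM (vertical axis, from 0) of 6 of the genes in each of the 11 libraries by sampling time (horizontal axis), with points for libraries and a line for the mean of a time. In all 6 genes the 24 h replicate 1 point lies above both other 24 h points, and both 66 h points lie above the rest. The 6 genes do not stand for the 28 at 24 h. Replicate 1 was the highest 24 h library in 13 of the 28 (46.4%). The share was 40.7% of the 1301 genes with at least 100 FPKM at 66 h.

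Before 66 h the genes followed different courses. Between 18 and 42 h, 12 of the 28 genes were higher by at least 1.5 times at 42 h (means with 10 FPKM added), 2 were lower by that factor and 14 lay between. The share that was higher, 42.9%, compares with 34.0% of the 1301 genes with at least 100 FPKM at 66 h. The highest mean outside 66 h fell at 42 h in 20 genes, at 24 h in 4 and at 18 h in 4. No test is attached to these counts, because the choice of the genes used the same means.

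The 12 genes already higher at 42 h than at 18 h had median levels of 27.7 FPKM at 18 h, 43.4 at 24 h, 81.8 at 42 h and then 191 at 66 h. Apart from An12g03030 the most abundant of them was An15g00640, with 19.5, 147 and 154 FPKM at 18 h, 383, 139 and 94.7 at 24 h, 309, 316 and 393 at 42 h and then 432 and 771 at 66 h. Its 66 h libraries differed by 1.78-fold, and the lower of them was only 1.10 times the highest 42 h library. An08g03550 had 53.3, 95.4 and 70.1 FPKM at 18 h, 213, 42.2 and 96.96 at 24 h, 179, 151 and 218 at 42 h and then 393 and 265 at 66 h, with 58 and 37 reads behind the 66 h values. In both genes 24 h replicate 1 lay near the 42 h level while 24 h replicates 2 and 3 lay near the 18 h level.

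An04g05550 had 23.9, 38.5 and 13.4 FPKM at 18 h, 117, 14.2 and 14.5 at 24 h, 83.6, 121 and 83.5 at 42 h and then 227 and 202 at 66 h. It showed the same split at 24 h, with 9 reads in replicate 1 and 1 read each in replicates 2 and 3, and its 66 h libraries, 25 and 21 reads, were close to each other. An09g04820 had 12.4, 13.3 and 69.7 FPKM at 18 h, 81.00, 14.7 and 15.01 at 24 h, 97.7, 84.1 and 65.03 at 42 h and then 349 and 149.6 at 66 h. Here the 66 h libraries stood 2.34-fold apart, at 37 and 15 reads, and even the lower one was 1.53 times the highest other library.

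An04g05600 lies 5 measured genes from An04g05550 in the order of the reference table, the closest pair among the 28. It had 105, 37.8 and 119 FPKM at 18 h, 210.4, 125 and 128 at 24 h, 185, 164 and 92.3 at 42 h and then 268 and 354 at 66 h. The highest of its other libraries was again 24 h replicate 1. An15g01860 had 34.4, 9.23 and 38.8 FPKM at 18 h, 46.9, 40.9 and 62.5 at 24 h, 60.2, 131 and 52.7 at 42 h and then 177 and 159 at 66 h, and its lower 66 h library was 1.21 times 42 h replicate 2, the highest of the others.

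Low levels made the remaining genes of this kind uncertain. An02g00200 had 22.4, 36.1 and 12.6 FPKM at 18 h, 12.2, 39.8 and 54.3 at 24 h, 39.2, 75.9 and 29.4 at 42 h and then 85.4 and 153 at 66 h. Its lower 66 h library was 1.12 times 42 h replicate 2. An02g14860 had 40.5, 43.6 and 0 FPKM at 18 h, 66.1, 23.96 and 24.5 at 24 h, 53.3, 51.6 and 70.9 at 42 h and then 169.7 and 81.4 at 66 h, with 11 and 5 reads at 66 h. An01g13480 had 0, 42.9 and 14.96 FPKM at 18 h, 86.9, 15.8 and 0 at 24 h, 46.6, 90.3 and 34.9 at 42 h and then 91.2 and 149.8 at 66 h, and its lower 66 h library exceeded 42 h replicate 2 by 0.97 FPKM, less than the 10.1 FPKM that 1 read is worth there. An01g09850 had 52.3, 18.8 and 0 FPKM at 18 h, 18.98, 20.6 and 63.4 at 24 h, 45.9, 59.3 and 91.6 at 42 h and then 133 and 112 at 66 h, on 10 and 8 reads at 66 h.

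The gene with the largest ratio to its highest other mean, An03g06180 (4.98), also belonged to this kind and rested on the fewest data. It was listed at 0 in all 18 h and 24 h libraries and in 42 h replicates 1 and 2, at 40.1 FPKM in 42 h replicate 3, and at 139 and 73.5 FPKM at 66 h. These values stand for 1 read at 42 h and for 4 and 2 reads at 66 h. A count of 0 allows up to 3 reads, and the lower 66 h library is within that limit.

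Of the 2 genes that were lower at 42 h than at 18 h, An14g03680 held the more reads. It had 76.8, 83.2 and 43.02 FPKM at 18 h, 125, 45.2 and 46.5 at 24 h, 0, 32.8 and 0 at 42 h and then 205 and 216 at 66 h. The 42 h libraries were the lowest, with 0, 1 and 0 reads, and the 66 h libraries were the highest, with 7 reads each. The log2 ratio of 66 h to 42 h, 3.39, was therefore the largest among the 28 genes and rests on these few reads. The 18 h libraries held 2, 2 and 1 reads and the 24 h libraries 3, 1 and 1. None of these exceeds the 3 reads that a count of 0 allows, so single libraries did not resolve a fall to 42 h. An15g05660 had 0, 60.9 and 62.4 FPKM at 18 h, 0 in all libraries at 24 h, 0, 0 and 49.02 at 42 h and then 84.9 and 134 at 66 h. Its 66 h values were 2 and 3 reads, and no other library held more than 1 read.

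The 14 genes between these courses differed in their spread at the early times. An14g03980 had 85.1, 103 and 108 FPKM at 18 h, 58.01, 50.5 and 38.7 at 24 h, 93.2, 90.2 and 102 at 42 h and then 243 and 179.9 at 66 h. Its 18 h and 42 h libraries lay within 85.1 to 108 FPKM, the 24 h libraries were lower at 38.7 to 58.0 FPKM, and the lower 66 h library was 1.67 times the highest other one. An01g14000 had 128, 98.4 and 61.7 FPKM at 18 h, 199, 173 and 177 at 24 h, 112, 109 and 80.01 at 42 h and then 390.1 and 294 at 66 h. In this gene the 24 h mean, 183 ± 13.9 FPKM (SD, n = 3), lay above 96.0 ± 33.2 at 18 h and 100.3 ± 17.7 at 42 h. The mean at 66 h was 342 ± 67.8 FPKM (n = 2). The 24 h libraries held only 10, 8 and 8 reads, against 7, 5 and 3 at 18 h and 7, 7 and 5 at 42 h.

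An16g05580 had 25.2, 63.05 and 37.8 FPKM at 18 h, 54.9, 69.8 and 50.9 at 24 h, 51.4, 56.9 and 95.5 at 42 h and then 179 and 142 at 66 h, with 28 and 21 reads at 66 h and at most 13 in any other library. An08g00860 had 69.3, 63.8 and 11.2 FPKM at 18 h, 53.96, 11.8 and 0 at 24 h, 60.7, 83.9 and 34.6 at 42 h and then 151 and 151 at 66 h. Its 66 h libraries were nearly equal, at 20 and 19 reads, and the lower was 1.80 times the highest other library. An11g02860 had 104, 32.1 and 33.6 FPKM at 18 h, 48.7, 53.03 and 72.3 at 24 h, 105, 37.99 and 91.4 at 42 h and then 148 and 252 at 66 h, and its lower 66 h library was 1.41 times the highest other library.

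A further 4 genes of this kind lay above 200 FPKM in both 66 h libraries. An02g08140 had 122, 148 and 138 FPKM at 18 h, 158, 172 and 111 at 24 h, 214, 58.3 and 174 at 42 h and then 303 and 283 at 66 h. An02g05280 had 51.8, 27.96 and 145 FPKM at 18 h, 84.5, 61.2 and 188 at 24 h, 136, 66.2 and 90.8 at 42 h and then 276 and 208 at 66 h, where 24 h replicate 3 came within 1.11-fold of the lower 66 h library. An01g05130 had 150.4, 139 and 72.4 FPKM at 18 h, 93.5, 76.3 and 260.2 at 24 h, 169.7, 109.7 and 169 at 42 h and then 262 and 294 at 66 h. Its lower 66 h library was 1.01 times 24 h replicate 3, a gap smaller than the 16.4 FPKM that 1 read is worth there. An12g07390 had 105, 135 and 55.2 FPKM at 18 h, 114, 99.7 and 25.4 at 24 h, 97.96, 196 and 128 at 42 h and then 288 and 225 at 66 h, with 54 and 40 reads at 66 h and 33 reads in 42 h replicate 2.

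The last 5 genes lay between 100 and 200 FPKM at 66 h. An01g08060 had 46.8, 18.8 and 32.96 FPKM at 18 h, 25.5, 13.9 and 35.5 at 24 h, 30.7, 44.6 and 71.6 at 42 h and then 112 and 104 at 66 h, and its 66 h libraries were close, at 25 and 22 reads. An17g01230 had 123, 0 and 68.9 FPKM at 18 h, 0, 24.2 and 24.7 at 24 h, 53.8, 52.1 and 35.8 at 42 h and then 140.1 and 131 at 66 h. Its 18 h libraries spread over 0 to 123 FPKM, and its lower 66 h library was 1.07 times the highest of them. An16g09300 had 63.5, 68.2 and 23.9 FPKM at 18 h, 46.2, 50.3 and 89.8 at 24 h, 37.1, 71.8 and 120.5 at 42 h and then 121 and 162 at 66 h, with 42 h replicate 3 at 0.70 FPKM under the lower 66 h library. An04g02430 had 28.5, 76.6 and 64.2 FPKM at 18 h, 31.1, 0 and 51.8 at 24 h, 74.96, 36.3 and 49.9 at 42 h and then 152 and 80.3 at 66 h. An03g06750 was listed at 0 in 6 of the 9 earlier libraries and held 5 and 3 reads at 66 h, against at most 2 reads in any other library.

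**Figure D3:**
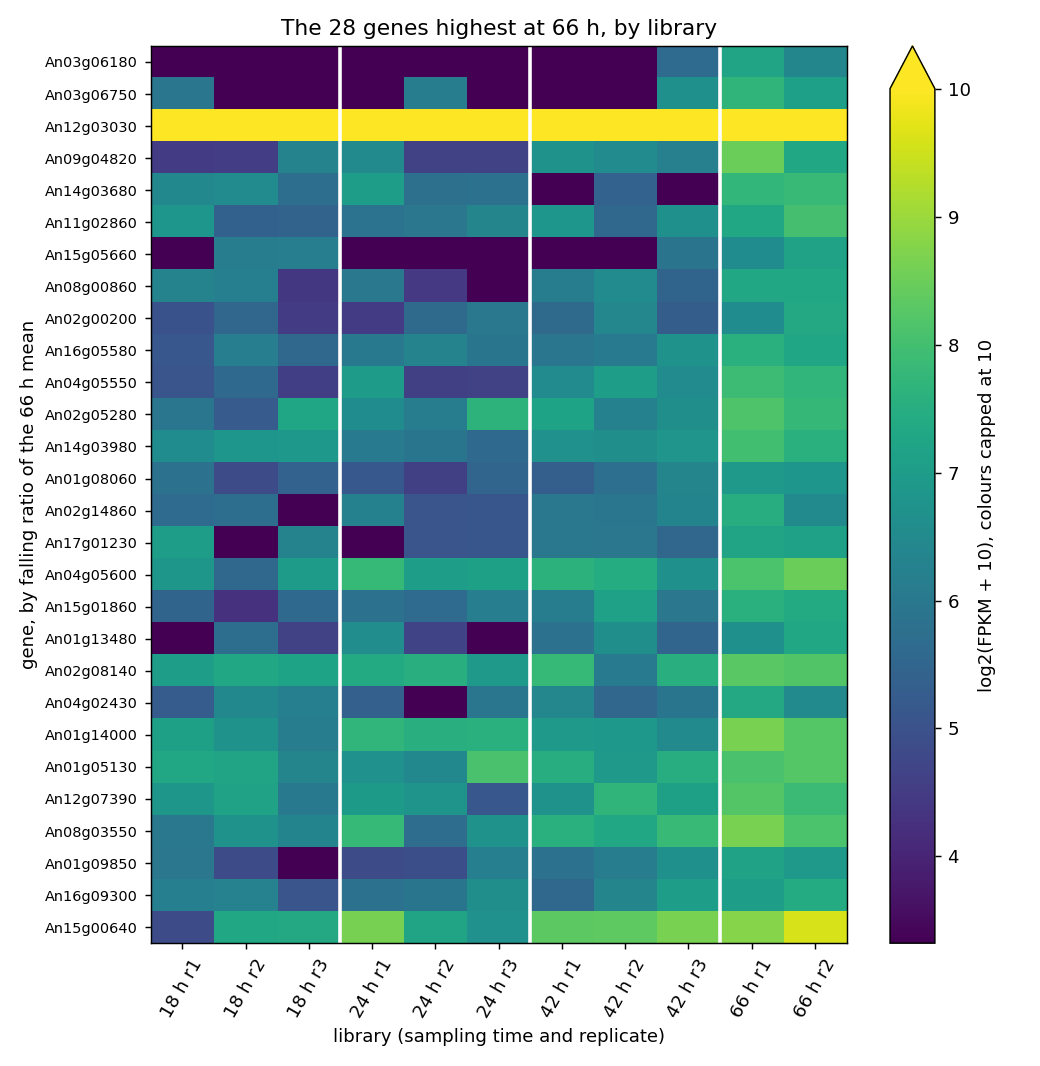
Levels of the 28 genes (rows, ordered by falling ratio of the 66 h mean to the highest other mean) in the 11 libraries (columns, in order of time) as log2(FPKM + 10), with colours capped at 10, a cap that An12g03030 exceeds in every library. The darkest cells are values listed at 0, which 10 of the 28 genes have in at least 1 library, and the 2 right columns are the brightest in each row below the cap.

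The gap between the groups was narrow in many of the 28 genes. The lower 66 h library was 1.01 to 1.83 times the highest of the other 9 libraries, with a median of 1.30. The gap was under 25% in 13 genes and at least 1.5-fold in 7. In FPKM, the gap was less than 1 read was worth in 66 h replicate 1 for An01g05130 and An01g13480. The same held for An16g09300 (0.70 against 8.08 FPKM), An04g02430 (3.69 against 10.9) and An17g01230 (8.95 against 15.6). It also held for An02g14860 (10.55 against 15.4), An15g05660 (22.5 against 42.5), An03g06750 (34.0 against 39.6) and An03g06180 (33.4 against 34.8). The nearest library from another time was a 42 h library in 18 genes, a 24 h library in 6 and an 18 h library in 4. The library most often nearest was 42 h replicate 3, in 9 genes.

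The 2 libraries of 66 h differed from each other by a median of 0.41 in absolute log2 over the 28 genes and of 0.34 over 1299 genes with at least 100 FPKM at 66 h and a value in both. Replicate 1 was the higher in 18 of the 28 genes (64.3%), against 44.7% of the 1301 genes at that level. At 24 h replicate 1 lay above replicates 2 and 3 in 13 of the 28 genes (46.4%), against 40.7% of the 1301 genes. These are counts over genes of the same libraries, and no test is attached to them.

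**Figure D4:**
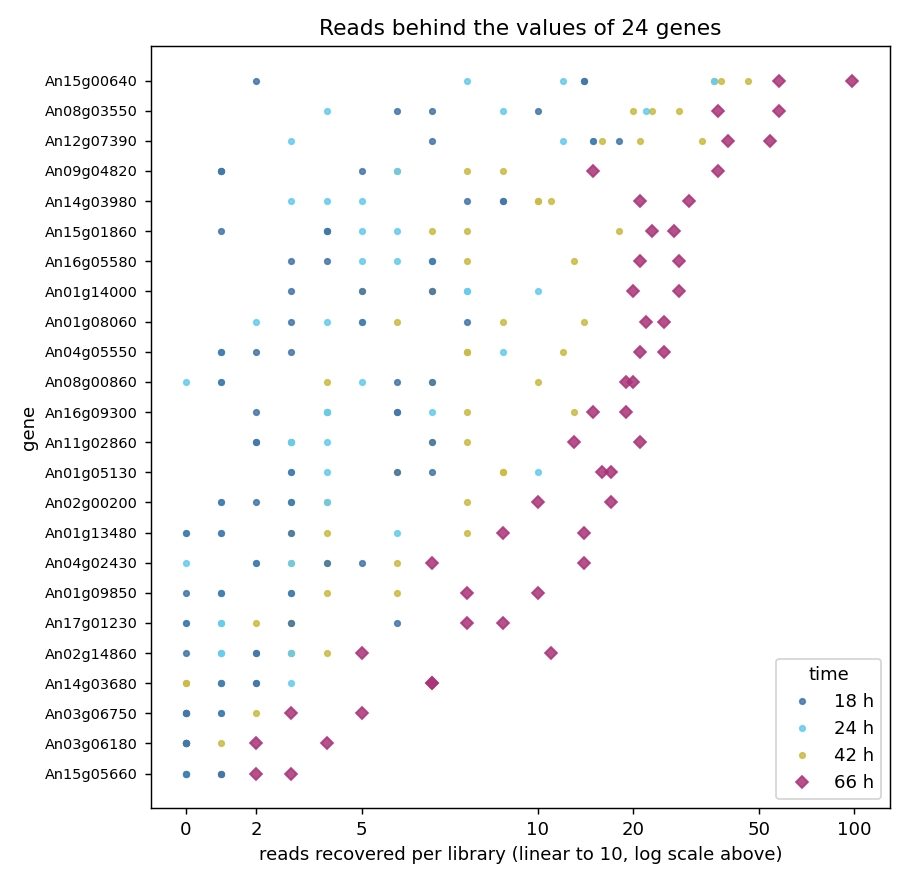
Reads recovered per library (horizontal axis, linear up to 10 and logarithmic above) for the 24 genes whose values showed the step of 1 read, with a diamond for each 66 h library and a dot for each other library, coloured by time. The genes run from An15g05660 at the bottom, with 2 and 3 reads at 66 h, to An15g00640 at the top, with 58 and 98, and points with equal reads overlap.

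To set the values against their error, all 8693 genes with at least 1 FPKM in at least 2 libraries were fitted with limma on log2(FPKM + 1) and adjusted over all of them by the Benjamini-Hochberg method. For 66 h against 42 h the median log2 fold change of the 28 genes was 1.19 with a median SE of 0.73, and over all genes tested it was 0. Fitted values of low genes depend on the 1 FPKM added: that of An14g03680, at 0 in 2 of the 42 h libraries, was 6.03 ± 1.31 (SE), while the log2 ratio of its means with 10 FPKM added was 3.39. At an adjusted p under 0.05, limma called 0 of the 28 genes in this comparison. Of all genes tested, 0.265% were called higher at 66 h at that threshold. An unadjusted p under 0.05 was found in 9 of the 28, a looser threshold for which the share over all genes is not given. For 66 h against 24 h limma called 3 of the 28, all higher at 66 h, where 2.23% of all genes tested were called higher. These were An03g06180, An12g03030 and An14g03980. Over 20 alternative fits the call of An03g06180 against 24 h, which rests on 4 and 2 reads against 0, was made in 9, with limma adjusted p of 0.0028 to 0.177, and those of An12g03030 and An14g03980 in 17 each. For 66 h against 18 h it called 5, all higher at 66 h, where 2.91% of all genes tested were called higher. These were An01g14000, An03g06180, An12g03030, An15g01860 and An16g05580. Against 18 h the call was made in 19 of the 20 alternatives for An12g03030, 16 for An01g14000, 14 each for An03g06180 and An15g01860, and 9 for An16g05580, whose limma adjusted p ran over 0.0275 to 0.26. Nothing is read from these counts, because the genes were chosen from the same means.

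For 42 h against 18 h, a comparison that the choice of genes also used by bounding the earlier steps, limma called 0 of the 28 genes, where 2.99% of all genes tested were called higher and 3.01% lower at 42 h. Here 23 of the 28 log2 fold changes were above 0 and 6 had an unadjusted p under 0.05. The 23 include An03g06180, listed at 0 in every 18 h library. The shares over all genes tested are not given for these counts, and nothing is read from them. The comparisons of 66 h share the 66 h libraries and one fit, so they are not independent of each other. An03g06180 was listed at 0 in every 18 h and 24 h library and An15g05660 in every 24 h library, and no fold change is given against a time at which all libraries are listed at 0.

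**Figure D5:**
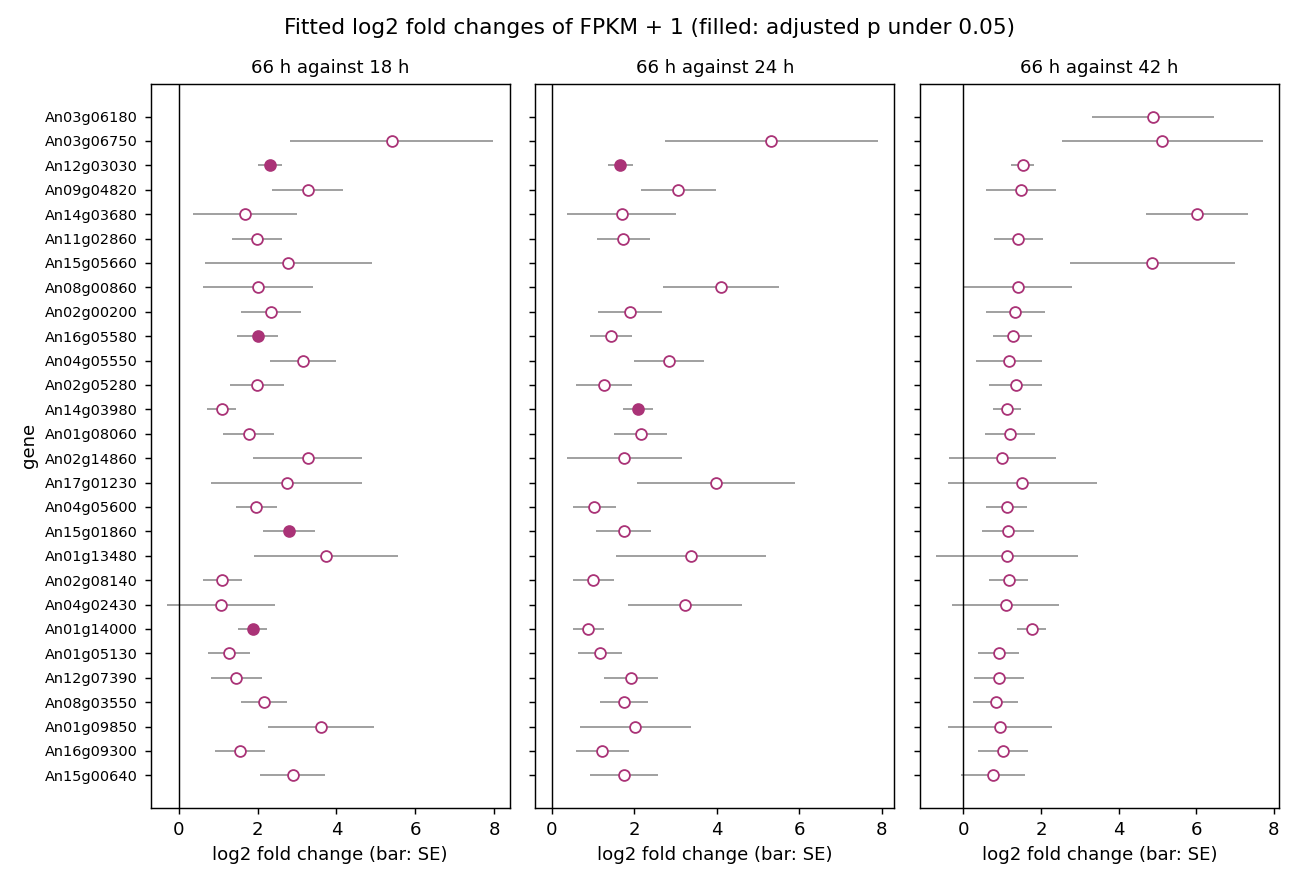
Fitted log2 fold changes of FPKM + 1 (horizontal axis, bars for 1 SE) of the 28 genes (rows) for 66 h against 18, 24 and 42 h, with filled points for an adjusted p under 0.05. Filled points number 4 against 18 h, 2 against 24 h and 0 against 42 h, and no point is drawn for An03g06180 against 18 and 24 h or for An15g05660 against 24 h, where every library of the earlier time is listed at 0.

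The choice of thresholds cuts through a continuous range. Just inside the limit of 75% above the highest other mean lay, with their ratios, An15g00640 (1.7501), An16g09300 (1.753), An01g09850 (1.754), An08g03550 (1.762) and An12g07390 (1.771). Just outside it, among 81 genes that missed only this condition, came An02g01022 (1.735), An16g01820 (1.718), An14g06230 (1.709), An14g03950 (1.703) and An13g02700 (1.699). An16g01820 had 767, 906 and 835 FPKM at 18 h, 887, 426 and 465 at 24 h, 1327, 1450.2 and 1533 at 42 h and then 2558 and 2393 at 66 h, a level above that of every gene of the 28 other than An12g03030. An14g06230 had 310.3, 235 and 336 FPKM at 18 h, 451, 231 and 266 at 24 h, 527, 628 and 596 at 42 h and then 1128 and 882 at 66 h.

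At the minimum of 100 FPKM the nearest genes inside were An03g06180 at a mean of 106 FPKM and An01g08060 at 108 FPKM. Outside it, among 74 genes that missed only this condition, the nearest were An07g01500 at 99.2 FPKM, An08g08410 at 98.0, An02g09080 at 92.2, An08g04160 at 85.6 and An02g03130 at 85.4. A further 13 genes missed only the separation of the libraries, 9 only the limit at 24 h and 2 only the limit at 42 h. The genes that missed only a limit at 24 or 42 h also had both 66 h libraries highest. An07g08810, singled out after its values were seen, had 463, 374 and 298 FPKM at 18 h, 2234, 412 and 481 at 24 h, 2394, 3106 and 2665 at 42 h and then 7177 and 6379 at 66 h.

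Most of the genes next to the 28 on the genome did not reach the ratio asked of the 28. The order of the reference table gave 56 flanking genes, none of them among the 28, and 11 of them reached 100 FPKM at 66 h. Their median log2 ratio of 66 h to 42 h was 0.10, with 30 higher, 20 lower and 6 equal, against a median of 0 over all genes. A 66 h mean at least 75% above the highest other mean, with 10 FPKM added to both, was found in 5 of the 56 (8.93%), against 3.59% of all genes. These were An01g13470, An01g14010, An08g03560, An12g03020 and An17g01240, whose means at 66 h were 8.04, 36.3, 53.6, 74.9 and 18.3 FPKM, all under the minimum of 100. An17g01240 was listed at 36.6 and 0 FPKM in the 66 h libraries and An01g13470 at 7.82 and 8.26. Both were at 0 in every earlier library. An01g14010 had 35.3 and 37.2 FPKM at 66 h. No test is attached to this share. An12g03020, next to An12g03030, had 9.16, 9.83 and 0 FPKM at 18 h, 39.95, 0 and 0 at 24 h, 24.1, 46.6 and 32.04 at 42 h and then 90.8 and 59.00 at 66 h. An08g03560, next to An08g03550, had means of 6.22 FPKM at 18 h, 9.60 at 24 h, 19.7 at 42 h and then 53.6 at 66 h.

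Few of the measured genes have a symbol, and the 28 genes are only 0.268% of all genes measured, so nothing is read from counts of 0 among genes with a symbol. Of 50 measured genes on lists of starch enzymes, other polysaccharide-degrading enzymes, proteases, secretion, central carbon, nitrogen and stress genes, 13 had at least 100 FPKM at 66 h and 0 were among the 28, while no measured gene carried a symbol of the conidiation and cell wall lists. Of all 102 genes with a symbol, 3 (2.94%) were at least 75% above the highest other mean at 66 h, with 10 FPKM added, against 3.59% of all genes, and 0 had both 66 h libraries above all others. The one above 100 FPKM at 66 h was cyc (An02g01830), the gene of the respiratory electron carrier cytochrome c, with 0, 50.2 and 0 FPKM at 18 h, 150.03, 0 and 55.9 at 24 h, 40.7, 79.2 and 40.5 at 42 h and then 211 and 74.2 at 66 h. Its 66 h libraries held only 6 and 2 reads. The lower of them lay below 24 h replicate 1 and 42 h replicate 2, so that cyc did not meet the condition on libraries. With 10 FPKM added, its 24 h mean was 2.94 times the 18 h one, so it also missed the limit at 24 h. The other 2 were furA and hyl1, at means of 25.2 and 9.01 FPKM at 66 h. The 66 h libraries held 1 and 2 reads of furA. For hyl1 the only value above 0 was 18.0 FPKM in 66 h replicate 1.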

How the data were processed

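RNA was sequenced in 11 libraries at 4 times. The authors deposited FPKM for 10445 genes. The submitters' processing notes name RSEM. Not given in the sources used here: its version, the aligner, the build and the annotation. No further scaling is recorded, so abundant transcripts can shift the rest of a library.

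The 28 genes, the lists and the tests were chosen with earlier results of these data known. With 40 or fewer genes meeting the rule, all were named, with near misses and flanking genes. Ratios use means with 10 FPKM added. limma 3.58.1 (R 4.3.3; tables with Python 3.11.15, pandas 2.3.3, numpy 2.4.6, figures with matplotlib 3.10.9) was fitted to log2(FPKM + 1) of genes with at least 1 FPKM in at least 2 libraries, with 1 mean per time and a variance trend, and was tested on simulated data. Reads were recovered from steps in FPKM, whole within 0.06 reads, for 87.8% of 8697 genes with values in at least 2 libraries; read limits cover counting error only. Symbols and gene order came from RefSeq (ASM285v2), which held 10417 identifiers. Sequences were not analysed here. The closing section gives the alternatives tried.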

Additional observations from a re-analysis of the deposited data

How the results depend on the processing

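The rule gave 28 genes. It gave 52 with a minimum of 50 FPKM at 66 h and 13 with 200 FPKM, 61 with a ratio of 1.5 and 13 with a ratio of 2, 29 and 25 with 1 or 30 FPKM added, 46 after median-of-ratios scaling, and 38 once every library was brought to 1 common FPKM total. All 28 stayed under both scalings. The 66 h libraries had the lowest FPKM totals and the lowest scaling factors (0.959 and 0.988). Both scalings therefore raised 66 h relative to every other library, so the 28 genes could hardly drop out and nothing is read from this. Leaving out 1 library gave 24 to 72 genes. Without 66 h replicate 1 the rule gave 68 genes, 19 of them among the 28, and without 66 h replicate 2 it gave 72, with 21 of the 28. Through all 11 such omissions 4 genes stayed, An11g02860, An12g03030, An14g03680 and An16g05580, and through all 19 alternatives 2 stayed, An12g03030 and An14g03680.

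Of the 28 genes, limma called 0 for 66 h against 42 h, with 0 to 1 when 1 library was left out and 0 under the other alternatives. An01g14000 was called without 18 h replicate 3, An12g03030 without 24 h replicate 1, An14g03680 without 42 h replicate 2 and An03g06180 without 42 h replicate 3. For 66 h against 24 h the 3 calls became 0 without a variance trend, 0 with only the libraries of these times, and 0 to 6 without 1 library, the lowest without 66 h replicate 1 and the highest without 24 h replicate 1. For 66 h against 18 h the 5 calls became 3 and 10 with 0.1 or 10 FPKM added, 8 with a filter at 10 FPKM, 8 with a common FPKM total, 1 without a trend, and 1 to 8 without 1 library. They were 1 without either 66 h library, 3 without 18 h replicate 2 and 8 without 24 h replicate 1. For 42 h against 18 h the 0 calls became 1 with 10 FPKM added, 1 with a filter at 10 FPKM, 1 with only the libraries of these times, and 0 to 2 without 1 library. A lone library at 66 h is assumed to have the spread of the earlier ones. The cause of these differences was not tested.

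The calls over all genes tested count genes higher and lower together, and the alternative filters also changed how many genes were tested. For 66 h against 42 h these calls numbered 37 of 8693 genes, and 0 to 95 under the alternatives. They numbered 481 for 66 h against 24 h (113 to 552), 525 for 66 h against 18 h (220 to 636) and 522 for 42 h against 18 h (249 to 608). With the replicate block the calls among the 28 genes were 0, 3, 4 and 0, and over all genes 4, 301, 362 and 409, in the same order. Of the 4 against 18 h, 3 were among the 5 made without the block, and An15g01860 (limma adjusted p 0.0742) and An16g05580 (0.0888) were not called; over all alternatives theirs ran over 0.0164 to 0.179 and 0.0275 to 0.26. Replicate numbers are shared across times by label only. In 9 pairs of libraries with the same number the deviations from the time means, over 2933 genes, correlated at -0.04 to 0.05, none over 0.1. The 24 h libraries were not compared in this way with those of 18 or 42 h. Counting error can hide a shared deviation, so pairing is not excluded. With no label for it, the numbers were not taken as pairs.

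With 2 libraries at 66 h and a median of 17 reads per 66 h library in the 24 genes with countable reads, the number of libraries and, in those 24 genes, depth limit the precision of the ratios, and the fewest reads in a 66 h library were 2.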
